A study of Mus musculus with 2 samples.

Results

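Oxidative phosphorylation genes encode the respiratory chain and the ATP synthase of the inner mitochondrial membrane. They were taken by gene symbol, without pseudogenes and without the Ndufaf assembly factors, which gave 98 of the 28692 genes in the count matrices. Of these, 85 lie in the nuclear genome and 13 in mitochondrial DNA. By complex, 36 nuclear and 7 mitochondrial genes belong to complex I, 4 nuclear genes to complex II, 8 nuclear and 1 mitochondrial to complex III, 20 nuclear and 3 mitochondrial to complex IV, and 17 nuclear and 2 mitochondrial to complex V. Ndufa4 and Ndufa4l2 carry complex I names but are counted with complex IV, to which Ndufa4 is now assigned. Atp5s and Atp5sl carry complex V names but are not subunits of the ATP synthase.

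Complexes I and II feed electrons into the membrane, complex III passes them to cytochrome c, and complex IV passes them to oxygen. Complexes I, III and IV pump protons, and complex V uses the resulting gradient to make ATP. All but complex II combine subunits from both genomes, and several complex IV subunits exist as a widely expressed copy and a copy restricted to tissues such as muscle, brown fat or testis.

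The cells were leukocytes (CD45+) resident in visceral adipose tissue of wild-type C57BL/6 mice labelled adult, with cells inside blood vessels excluded by intravenous labelling. The mice had eaten chow or a ketogenic diet, which raises ketone bodies, for 1 week, and each diet is represented by 1 droplet library. The number, sex and exact age of the mice behind each library are not given in the sources used here. The authors' deposited table placed 4458 chow and 5559 ketogenic cells in 13 clusters.

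Values are unique molecular identifiers (UMIs), which count captured transcript 3′ ends, summed over the cells of a cluster. They are given as a share of all UMIs or as CPM (counts per 1e6 UMIs). With 1 library a diet there is no replicate check and no test between the diets, and every 95% interval covers counting error only. The chow and ketogenic libraries held 21570910 and 26041785 UMIs, with medians of 3469 and 3461.5 per cell, and 41 cell barcodes occurred in both. Named from marker genes, cluster 0 was ILC2-like (group 2 innate lymphoid cells), 1 NK-like (natural killer cells), 2 T-like, 3 macrophage-like, 5 cDC2-like and 6 cDC1-like (conventional dendritic cells, DC), 7 Treg-like (regulatory T cells), 9 B and plasma-like, 10 cycling-like, 11 γδ T-like and 12 mature DC-like. Clusters 4 (T cell and NK receptor genes) and 8 (Retnla, Fcrls and Lyz1) stayed unnamed. The diets differed in composition, with 859 and 145 cells in cluster 3 and 362 and 47 in cluster 8 in the chow and ketogenic library.

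The promoters of 70 of the 85 nuclear genes were found in RefSeq (build GRCm38.p6), as 76 windows of 300 bases around the gene start. The palindromic motif of nuclear respiratory factor 1 occurred on either strand in 6.58% of these windows and in 0.971% of all 32851 windows. The core of ETS family sites, CCGGAAG, occurred in 21.1% against 8.86%. The YY1 motif AAGATGGCG occurred in 11.8% against 1.40%, and the TATA box letters TATAAA in 8 of the 76 against 13.6%. Both strands were searched for each motif. The windows of the members had a median GC content of 57.5%, against 52.7% for all windows, and the part of this in the motif shares was not tested. A match describes the letters only. The 250 bases before the start are printed for 2 widely expressed complex IV subunits, for Cox6b2, the restricted copy of Cox6b1, and for Atp5k, whose diet ratio was among the lowest. Capitals mark motif matches. All 4 genes lie on the minus strand and are written 5′ to 3′.
Cox6a1 (chr5:115348959-115349208, 1 nuclear respiratory factor and 1 ETS match): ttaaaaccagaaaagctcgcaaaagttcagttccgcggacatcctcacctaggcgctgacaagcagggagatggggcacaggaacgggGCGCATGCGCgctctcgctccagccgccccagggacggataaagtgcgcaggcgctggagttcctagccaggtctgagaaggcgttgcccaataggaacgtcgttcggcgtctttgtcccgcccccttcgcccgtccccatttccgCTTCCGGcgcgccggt
Cox6b1 (chr7:30626115-30626364, 1 ETS match): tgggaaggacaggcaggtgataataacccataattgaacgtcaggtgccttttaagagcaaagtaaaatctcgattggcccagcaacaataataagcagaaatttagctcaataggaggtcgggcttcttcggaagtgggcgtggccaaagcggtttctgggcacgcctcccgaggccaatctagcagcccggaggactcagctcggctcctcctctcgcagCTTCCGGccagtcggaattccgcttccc
Cox6b2 (chr7:4753095-4753344, no match): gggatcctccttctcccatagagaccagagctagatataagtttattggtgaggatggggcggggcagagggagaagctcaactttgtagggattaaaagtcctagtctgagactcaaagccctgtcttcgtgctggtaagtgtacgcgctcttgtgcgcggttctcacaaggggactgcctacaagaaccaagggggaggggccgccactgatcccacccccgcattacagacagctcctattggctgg
Atp5k (chr5:108434400-108434649, 1 nuclear respiratory factor match): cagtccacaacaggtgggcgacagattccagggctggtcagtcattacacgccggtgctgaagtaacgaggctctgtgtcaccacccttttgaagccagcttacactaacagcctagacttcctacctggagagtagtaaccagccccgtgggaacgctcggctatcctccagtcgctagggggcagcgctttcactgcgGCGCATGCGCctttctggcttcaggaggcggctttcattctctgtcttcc

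Nearly all of the genes were well covered. Of the 98, 93 had at least 100 UMIs over both libraries, 80 of them nuclear, and 75 nuclear genes had at least 1000. Cox7b2 and Cox8c had no UMI, Cox8b, the muscle and brown fat copy of Cox8a, had 1 in chow and 0 in ketogenic cells, Ndufa4l2 had 0 and 2, and Cox4i2, the second copy of Cox4i1, had 2 and 5. The exons of 26 nuclear genes overlap another gene. Within mitochondrial DNA, mt-Atp8, mt-Atp6 and mt-Co3, and mt-Nd4l and mt-Nd4, overlap on the same strand, and mt-Nd5 and mt-Nd6 on opposite strands. How the counting treated strand and shared stretches is not given in the sources used here, so counts of these genes are less certain.

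The γδ T-like cluster 11 carried the largest combined share of oxidative phosphorylation transcripts when all UMIs were the total. The nuclear genes made up 2.91% (95% interval 2.83 to 2.99) of its UMIs in the chow library and 2.70% (2.66 to 2.74) in the ketogenic library. The 13 mitochondrial genes made up 2.72% (2.64 to 2.79) and 2.38% (2.35 to 2.42). Both shares were above those of all clustered cells, which were 2.43% and 2.24% for the nuclear genes and 1.97% and 1.83% for the mitochondrial genes. The rank depends on the total. With mitochondrial, ribosomal, immunoglobulin and haemoglobin genes left out of it, the B and plasma-like cluster 9 came first, with nuclear values of 3.80% and 3.64% and mitochondrial ones of 4.48% and 3.99%, against 4.13% and 3.82%, and 3.86% and 3.37%, in cluster 11.

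Cluster 8 had the other high nuclear share, at 2.76% in chow and 2.73% in ketogenic cells, so that clusters 11 and 8 changed places between the libraries. Cycling cells followed with 2.61% and 2.60%, and NK-like cells with 2.67% and 2.44%. The clusters from 4 to 2 in the middle of the order (4, 0, 7 and 2) lay between 2.36% and 2.38% in chow and between 2.23% and 2.25% in ketogenic cells. They differed from each other by less than the 2 libraries differed. The cDC1-like, cDC2-like and mature DC-like clusters were lower, at 2.27% and 2.18%, 2.24% and 2.08%, and 2.17% and 1.94%. The place of cluster 8 also depends on the total. Without mitochondrial, ribosomal, immunoglobulin and haemoglobin genes in it, cluster 8 was at rank 6 in chow and rank 3 in ketogenic cells. Its nuclear share was then 3.60% in both libraries.

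The B and plasma-like cluster 9 had the lowest nuclear share, 1.31% in chow and 1.65% in ketogenic cells. Immunoglobulin genes took 47.7% and 29.1% of its UMIs. With these left out of the total, its nuclear share was 2.51% and 2.33%, which placed it at rank 5 in chow and rank 6 in ketogenic cells. The mature DC-like cluster was then the lowest in both libraries.

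**Figure D1:**
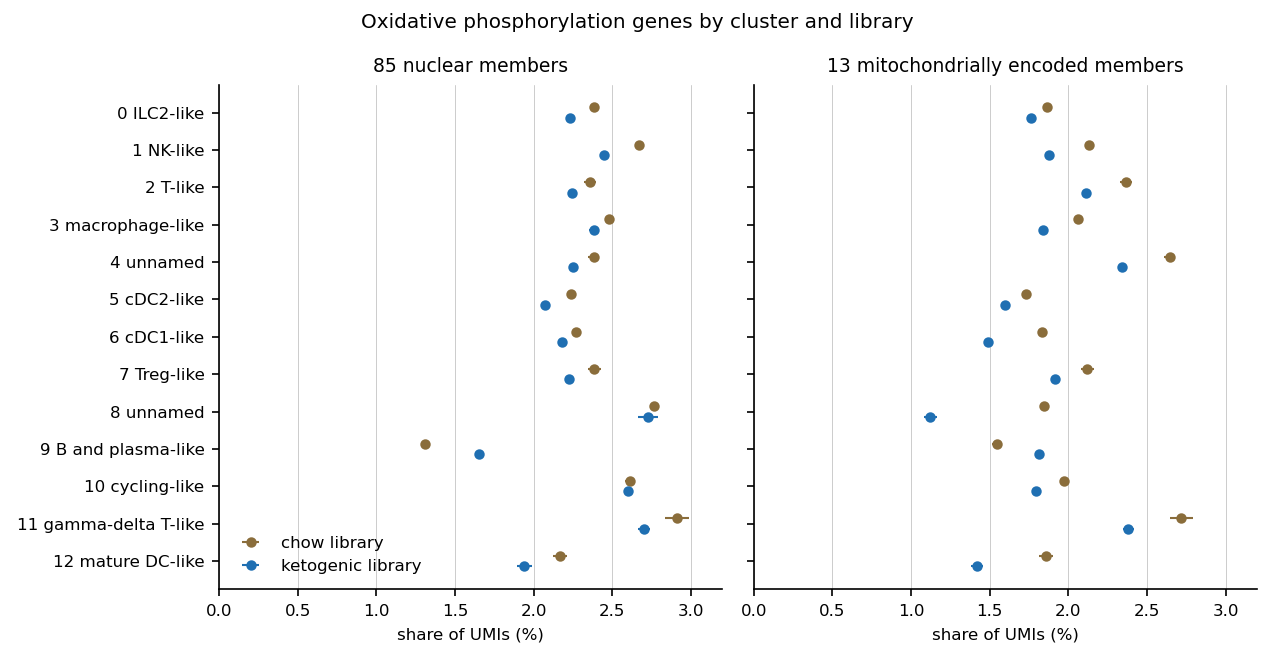
Share of UMIs (%) taken by the 85 nuclear (left) and 13 mitochondrially encoded genes (right) in each cluster, with points for the chow and ketogenic library and bars for the exact 95% binomial interval (counting error only, mostly smaller than the points). The ketogenic point lies left of the chow point in 12 of 13 clusters in each panel, with cluster 9 as the exception, and cluster 8 has a high nuclear and a low mitochondrial share.

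The mitochondrial genes did not follow the same order. With all UMIs as the total, their share after cluster 11 was highest in cluster 4 (2.65% and 2.34%) and the T-like cluster 2 (2.37% and 2.12%). It was lowest in cluster 9 in chow (1.55%) and in cluster 8 in the ketogenic library (1.12%, against 1.84% in chow). With immunoglobulin genes left out of the total, cluster 9 instead had the highest mitochondrial share in both libraries, 2.96% and 2.56%, ahead of cluster 11 with 2.72% and 2.39%. In the mean over cells it was also first in the ketogenic library, at 2.41%. Cluster 8 had the most nuclear UMIs per mitochondrial UMI, 1.498 in chow and 2.43 in ketogenic cells, and clusters 9 and 4 the fewest, with 0.847 and 0.911 in cluster 9 and 0.9003 and 0.961 in cluster 4. Across the 13 clusters the nuclear and mitochondrial shares had a Spearman correlation of 0.56 in chow and 0.26 in the ketogenic library, and of 0.44 and 0.27 without immunoglobulin genes in the total. The mitochondrial share and the median UMIs per cell had one of -0.68 and -0.58, and of -0.61 and -0.51 without them. Clusters of a library share its preparation and depth, so these values are a description.

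Part of the cells with the highest mitochondrial share are not in these clusters. No clustered cell had more than 5% mitochondrial UMIs, and all 142 cells without a cluster had. Those cells had a mitochondrial share of 6.69% in chow and 6.86% in the ketogenic library, with overlapping intervals (6.58 to 6.79 and 6.74 to 6.98). Their nuclear share was 2.19% and 2.005%, below that of the clustered cells.

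Among the 75 nuclear genes with at least 1000 UMIs, 33 were highest in cluster 11 in chow and 23 in the ketogenic library, where 20.7% and 15.7% of all genes with that many UMIs were. Cluster 8 held the highest value of 13 and 22, against 7.09% and 9.75% of all genes, and cluster 10 of 10 and 17, against 10.1% and 12.8%. With the libraries pooled, the genes that varied most over the clusters were mainly accessory subunits of complex I, which surround its catalytic core. Ndufa10, Ndufv3, Ndufa9, Ndufa12 and Ndufa5 were among the 6 with the largest range. Ndufv3 was at 400 CPM in chow and 347 CPM in ketogenic cells of cluster 11, and at 110 and 162 CPM in the mature DC-like cluster 12. Ndufa12 was at 221 and 191 CPM in cluster 11 and at 64.2 and 72.3 CPM in cluster 12. Cox6c, a small complex IV subunit, was at 1111 and 1079 CPM in cluster 11, where both libraries lay above all other clusters.

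The smallest range with the libraries pooled was that of Ndufb9, an accessory subunit of complex I, at 0.57 on the log2 scale, against 1.71 for Ndufa10. In chow alone Ndufb9 ranged over 0.92 and in ketogenic cells over 0.60, against 2.09 and 1.58 for Ndufa10. Uqcrc1, a core protein of complex III, was also among the 4 smallest pooled ranges, at 0.66, but ranged over 1.41 in chow. These ranges depend on cluster 9, whose total holds many immunoglobulin UMIs. With immunoglobulin genes left out of the total, the pooled range was 1.10 for Ndufa10 and 0.67 for Ndufb9. The smallest was then 0.39 for Atp5c1, the gamma subunit of the ATP synthase, and the largest 1.54 for Ndufa9, 1.53 for Ndufa12 and 1.48 for Ndufa5, all with the lowest level in the mature DC-like cluster. Where at least 50 UMIs were required in every cluster, Ndufa10 and Ndufa9 left the group of the 6 most variable. The pattern of a nuclear gene over the clusters was alike in both libraries, with a median Pearson correlation of 0.829 over 13 clusters for the 75 genes. Cluster 9 held the lowest value of 61 of the 75 in chow and of 31 in the ketogenic library. Its part in this correlation was not tested, and no value over all genes is given.

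Some genes separated the clusters led by macrophage or dendritic cell genes (3, 5, 6, 8 and 12) from those led by T, NK and innate lymphoid cell genes (0, 1, 2, 4, 7 and 11). In both libraries, Uqcrfs1, the Rieske iron-sulfur protein of complex III, was higher in every cluster of the first kind. Its level was 186 to 239 CPM there against 142 to 161 CPM in chow, and 199 to 259 against 153 to 193 CPM in the ketogenic library. It was the only such gene of 87 members with at least 1000 UMIs, where 3.23% of all genes with that many UMIs showed this. In 6 members, the second kind was higher throughout, against 10.4% of all genes. Ndufv3 (235 to 400 against 110 to 201 CPM in chow), Ndufs3, mt-Nd1, mt-Nd2 and mt-Nd5 of complex I and mt-Co1 of complex IV (4585 to 6246 against 3888 to 4432 CPM) were these 6. As shares of the 87, neither count is above that of all genes. Ndufa6, a complex I accessory subunit, reached 564, 608 and 624 CPM in clusters 5, 6 and 8 in chow and 507, 605 and 794 CPM in ketogenic cells, above every other cluster, but not in clusters 3 and 12.

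**Figure D2:**
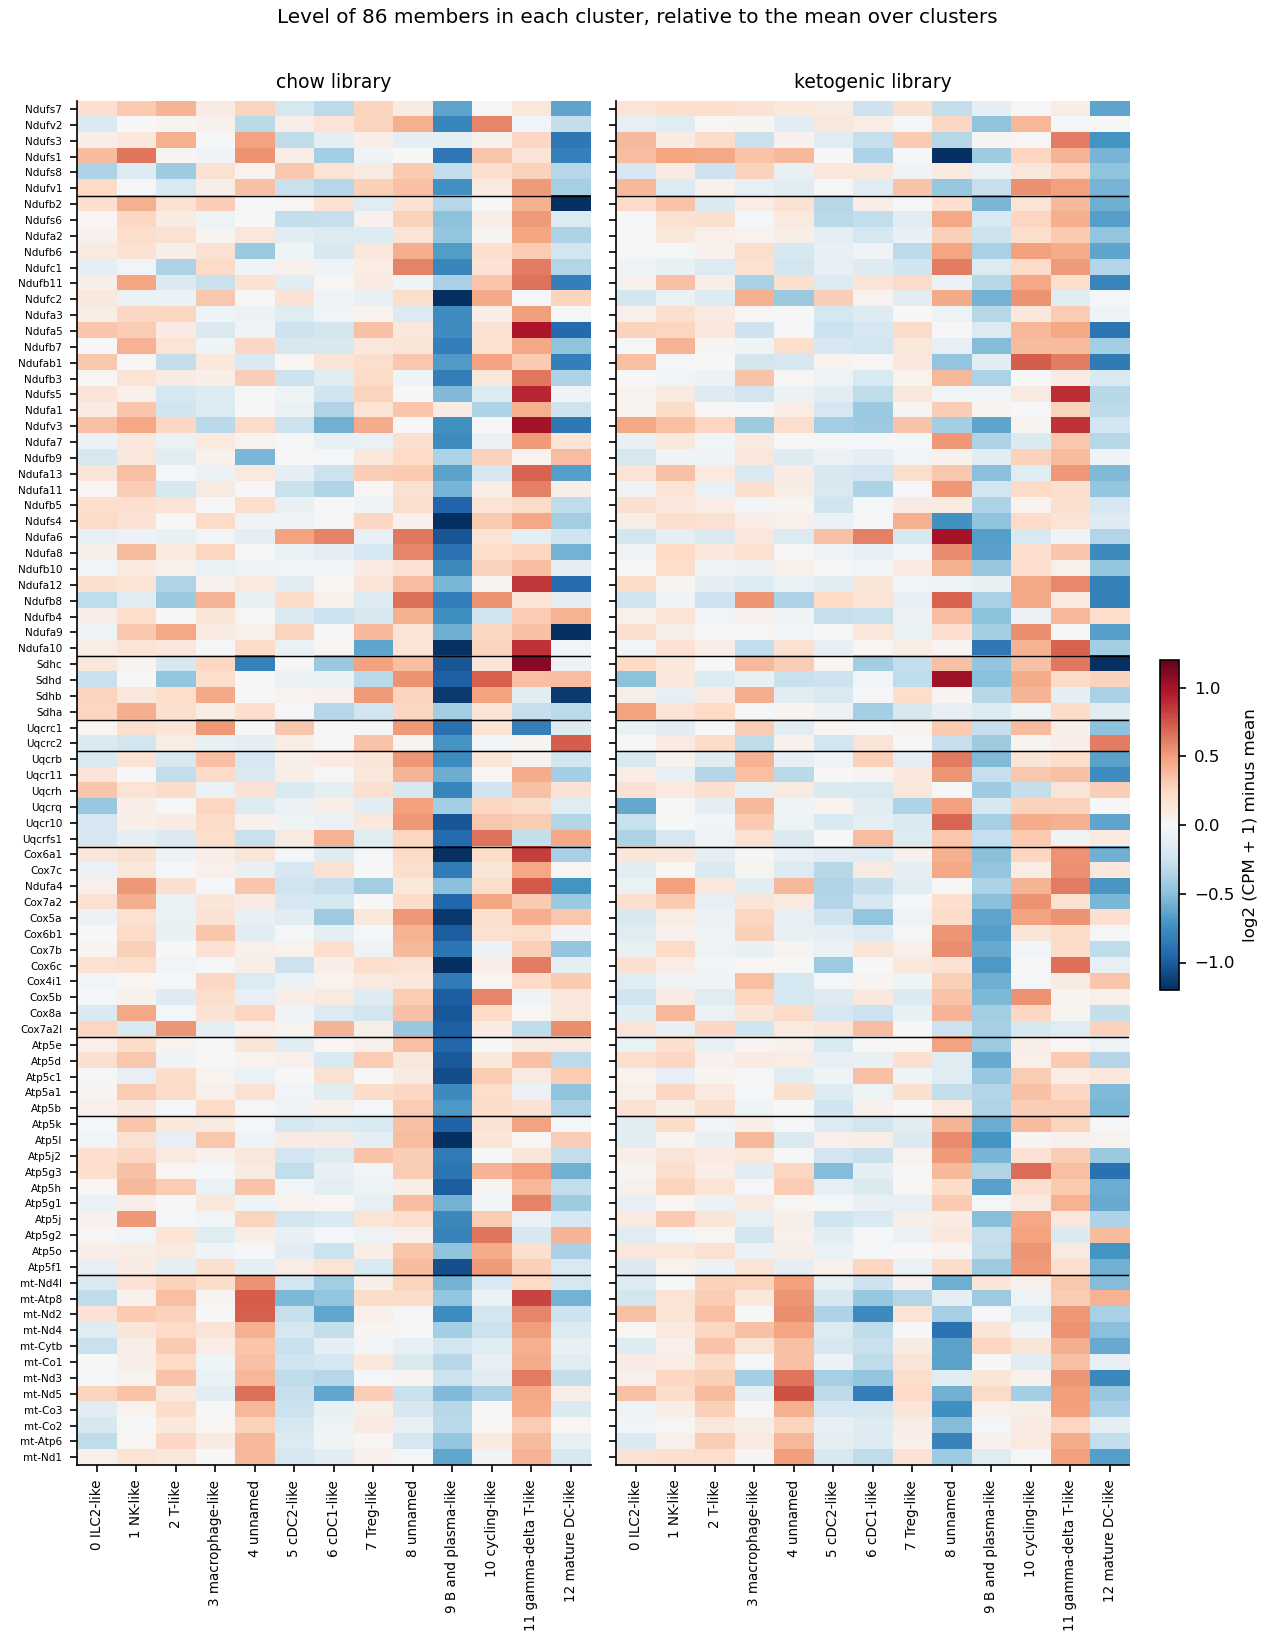
Level of 86 of the 87 members with at least 1000 UMIs (rows, grouped by complex and role, lines between groups) in the 13 clusters (columns) of the chow and ketogenic library, as log2 (CPM + 1) minus the gene's mean over the clusters of that library. Cluster 11 is red for most complex I accessory subunits, cluster 9, whose total holds many immunoglobulin UMIs, is blue in most nuclear rows, and cluster 8 of the ketogenic library is blue in most mitochondrial rows.

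Both diets' cells used the common copies of the complex IV subunits, and 3 of the restricted copies passed 100 UMIs. The clearest was Cox6a2, the heart and skeletal muscle copy of Cox6a1 (chr7:128205435-128206387, minus strand, GRCm38), whose exons overlap Itgad on the opposite strand. It had 143 UMIs in chow and 284 in ketogenic cells. Of these, 122 and 206 fell in the cDC2-like cluster 5, at 55.3 CPM (45.9 to 66.0) and 74.6 CPM (64.7 to 85.5). In the cDC1-like cluster 6 it had 0 UMIs among 307 chow cells, which allows up to 0.977% of cells with a UMI but sets no limit on cells that express the gene, and 2 UMIs among 355 ketogenic cells.

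Within cluster 5, the Cox6a2 UMIs came from few cells, 17 of 344 in chow and 27 of 358 in the ketogenic library. Cells with a UMI of Siglech, a marker of plasmacytoid dendritic cells, numbered 23 and 30. They held 99.2% and 95.6% of the cluster's Cox6a2 UMIs, at 1120 CPM (929 to 1338) and 1065 CPM (921 to 1224). Cells of the cluster without a Siglech UMI were at 0.477 CPM (0.0121 to 2.66) and 3.49 CPM (1.60 to 6.63). Thinned to 1000 UMIs per cell, which left out no cell, 55.4% and 47.6% of the Siglech cells had a Cox6a2 UMI, against 0.0369% and 0.351% of the others. Unthinned, 16 of 23 and 24 of 30 Siglech cells had one, against 0.312% and 0.915% of the others, at median depths of 4456 and 5919 against 6514 and 7816 UMIs. Itgad was at 27.8 and 10.8 CPM in the Siglech cells, far below Cox6a2.

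The same cells carried other plasmacytoid dendritic cell genes. Bst2 was at 3960 and 3664 CPM in the Siglech cells against 287 and 237 CPM in the rest of cluster 5, and Tcf4, a regulator of that lineage, at 1147 and 827 against 90.6 and 94.6 CPM. Ccr9 and Ly6d were also higher in them in both libraries. The cDC2 gene Mgl2 was at 55.5 and 0 CPM against 742 and 535 CPM. Other cDC2 genes were lower but still present in them. Cd209a was at 259 and 422 CPM against 1249 and 1021 CPM, and Clec10a at 231 and 249 CPM against 472 and 567 CPM. The widely expressed copy Cox6a1 was measured at 629 and 589 CPM in the Siglech cells and 647 and 481 CPM in the others. The mitochondrial share of these cells was 3.03% (2.93 to 3.14) and 3.17% (3.10 to 3.26), against 1.67% and 1.49% in the other cells of cluster 5. Their nuclear share was 2.58% and 2.45%, against 2.22% and 2.05%.

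Cox6b2, the testis copy of Cox6b1 (chr7:4751792-4753094, minus strand), was lower in the Siglech cells than in the rest of cluster 5. In the whole cluster it was at 79.8 CPM (68.4 to 92.5) in chow and 52.5 CPM (44.3 to 61.7) in the ketogenic library. The Siglech cells held 1 and 2 of its UMIs, at 9.25 CPM (0.234 to 51.5) and 10.8 CPM (1.31 to 39.0), against 83.4 CPM (71.5 to 96.8) and 55.5 CPM (46.7 to 65.3) in the others. Its counts came from many cells, 118 of 344 and 92 of 358. It was also found in the cycling-like cluster 10, at 45.7 and 30.1 CPM, in clusters 3, 8 and 12 at 10.1 to 23.8 CPM, and in the cDC1-like cluster 6 at 8.61 and 11.5 CPM. In the ILC2-like, NK-like, T-like and Treg-like clusters it did not exceed 5.01 CPM. Cox6b1 was at 601 and 589 CPM in the Siglech cells and 645 and 562 CPM in the others.

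Cox7a1, the heart, muscle and brown fat copy of Cox7a2 (chr7:30184144-30186078, plus strand), had 102 UMIs in chow and 38 in ketogenic cells. In chow, 29 of them lay in the macrophage-like cluster 3 (5.71 CPM, 3.82 to 8.20) and 30 in cluster 8 (10.3 CPM, 6.95 to 14.7). The ketogenic library, with far fewer cells in both, had 3 UMIs in cluster 3 (3.36 CPM, 0.693 to 9.82) and 1 in cluster 8 (3.97 CPM, 0.1005 to 22.1), with intervals that overlap those of chow. Adipocyte genes were also lower over all clustered cells of the ketogenic library. The summed level of 8 such markers was 261 CPM in chow (19.3 to 1000 over clusters) and 40.8 CPM in ketogenic cells (2.85 to 1024). Most of it was Lpl and Fabp4, which macrophages also express, and with clusters given the same weights in both libraries Lpl was at 105 and 90.9 CPM and Fabp4 at 18.5 and 23.9 CPM. Ucp1, which defines brown adipocytes, had 5 UMIs in chow and 0 in ketogenic cells, Cidec and Cidea were at 0 in chow and Plin1 at 0 in ketogenic cells. Their part in the Cox7a1 counts was not tested.

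**Figure D3:**
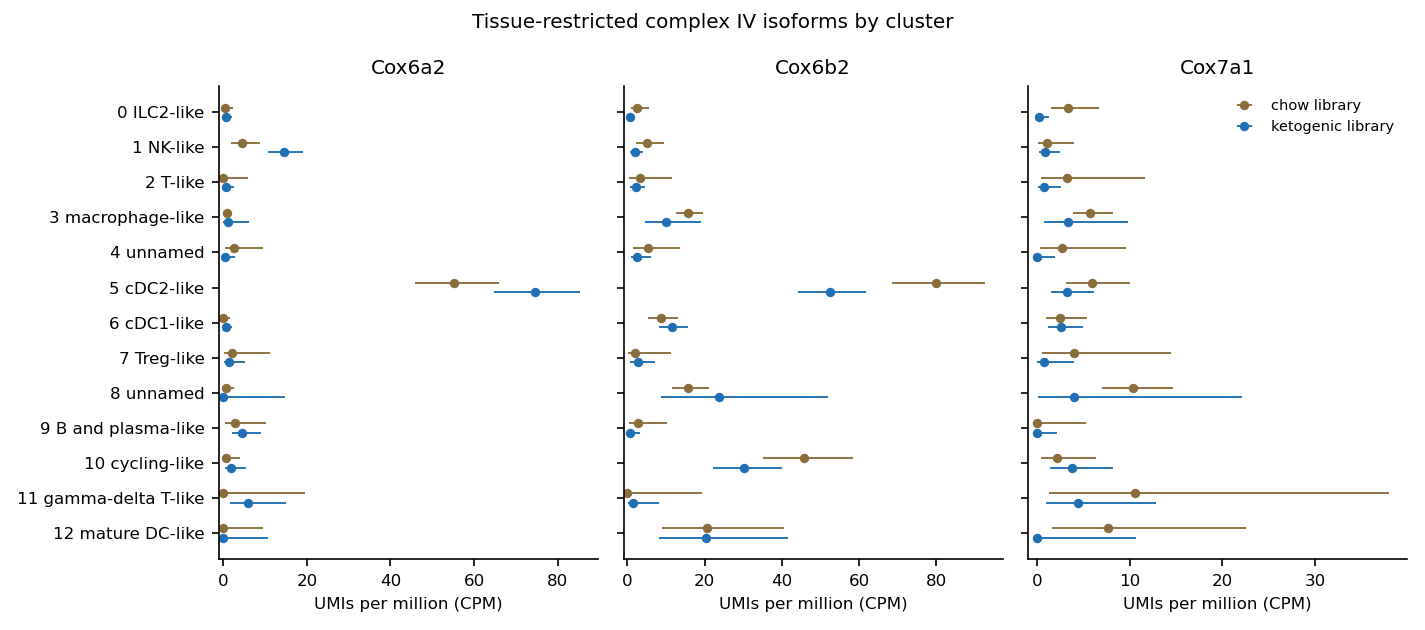
Level (CPM) of Cox6a2, Cox6b2 and Cox7a1 in each cluster, with points for the chow and ketogenic library and bars for the exact 95% Poisson interval (counting error only). Cox6a2 and Cox6b2 are both highest in cluster 5, Cox6b2 also stands out in cluster 10, and Cox7a1 stays low in every cluster.

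The diets were compared apart from the change in the clusters' shares of cells. For this, the CPM of the clusters were combined with the same weights in both libraries, the mean of a cluster's shares of cells. On that scale the nuclear genes summed to 2.42% of UMIs in chow and 2.30% in ketogenic cells, a log2 ratio of -0.078 (-0.085 to -0.071). The mitochondrial genes summed to 2.06% and 1.83%, a log2 ratio of -0.17 (-0.17 to -0.16). These differences are small. The nuclear genes were lower in the ketogenic library in 12 of 13 clusters, with the interval below 0 in 10, and the mitochondrial genes in 12 of 13, with the interval below 0 in 12. The exception was cluster 9 in both cases. Its nuclear log2 ratio was 0.34 and its mitochondrial one 0.23, and with immunoglobulin genes left out of the total they were -0.10 and -0.21. In that cluster 17 of 73 nuclear genes were at least 1.5-fold higher in the ketogenic library, against 42.8% of all genes there.

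Depth did not differ in the same way in all clusters, so the shares were also taken within windows of UMIs per cell that held at least 20 cells of each library. With 2000 to 3000 UMIs, the nuclear share was lower in the ketogenic library in 6 of 6 clusters, and with 3000 to 5000 in 8 of 8. With 5000 to 10000 it was lower in 5 of 6, the exception being cluster 10. The mitochondrial share was lower in 6 of 6, 8 of 8 and 5 of 6, the exception being cluster 5.

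Single genes differed little between the diets. Of the 93 genes with at least 100 UMIs, Cox6a2 was at least 1.5-fold higher in the ketogenic library, where 4.9995% of all 10361 genes were. Cox7a1 and mt-Nd4l were at least 1.5-fold lower, where 4.84% were. Of the 80 nuclear genes, 52 (65.0%) had a ratio below 1, against 43.4% of all genes, and their median log2 ratio was -0.084 against 0.055.

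**Figure D4:**
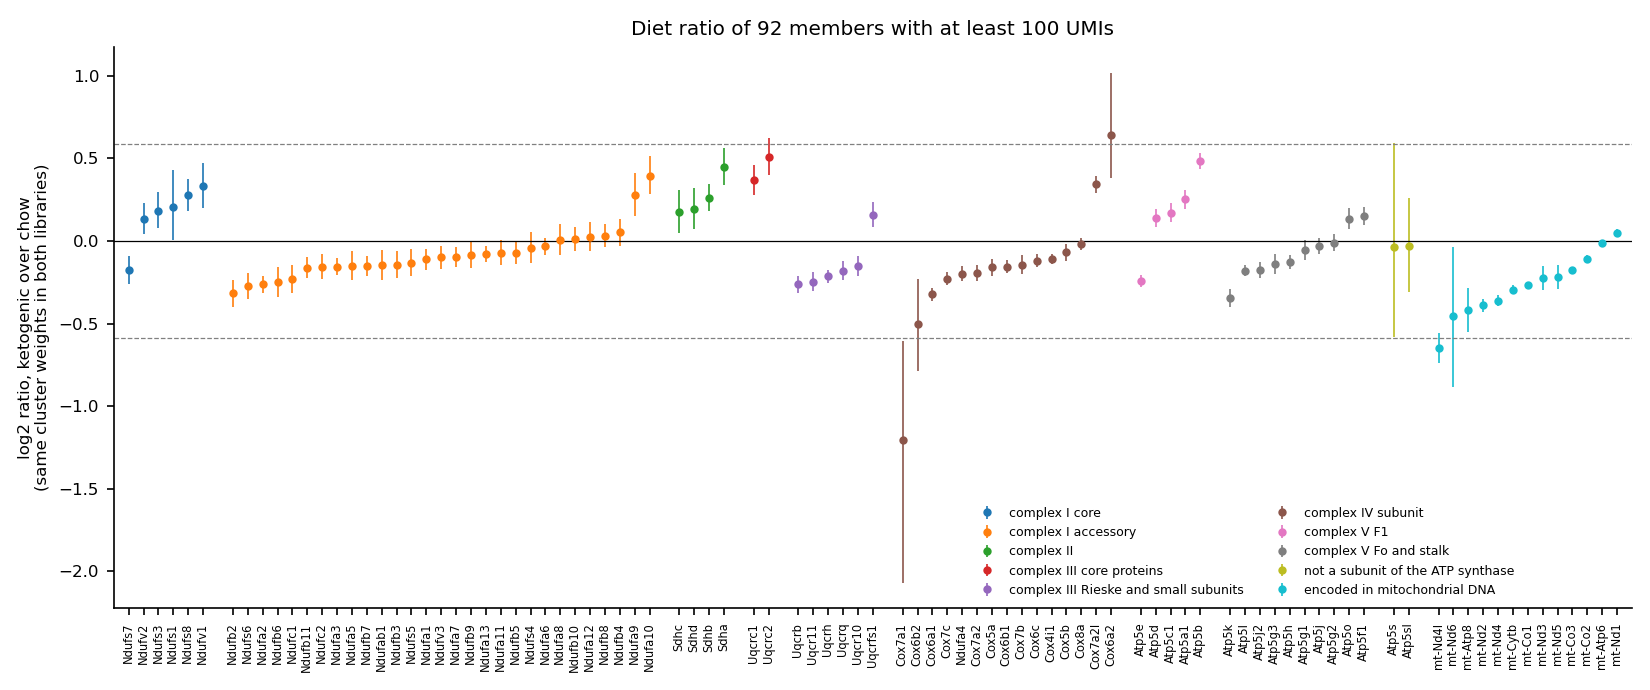
Log2 ratio of ketogenic over chow CPM, with the same cluster weights in both libraries, for 92 of the 93 members with at least 100 UMIs, grouped by complex and role and sorted within each group. Bars are 95% intervals for counting error and dashed lines mark 1.5-fold. All genes of complex II and both core proteins of complex III lie above 0, and most small subunits and 12 of 13 mitochondrial genes lie below it.

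The direction differed between the kinds of subunit. The 7 core subunits of complex I encoded in the nucleus, which carry out its electron transfer, had a median log2 ratio of 0.21 and 6 were higher in the ketogenic library. Ndufv1, which binds NADH, was at 50.2 CPM in chow and 63.2 CPM in ketogenic cells (log2 ratio 0.33, 0.20 to 0.47). Ndufs1, the largest subunit, was at 22.7 and 26.3 CPM (0.21, 0.0042 to 0.43). Ndufs7 was the one of these that was lower, with a log2 ratio of -0.18. Within clusters 4 and 8, 3 of the 6 nuclear core subunits with at least 100 UMIs there were lower. Most were higher in every other cluster but cluster 12, where none had that many. Of the 7 core subunits encoded in mitochondrial DNA, mt-Nd1 alone was higher.

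The 29 accessory subunits of complex I had a median of -0.098, and 22 were lower in the ketogenic library. Ndufb2 was at 182 CPM in chow and 146 CPM in ketogenic cells (-0.32, -0.40 to -0.24). Ndufa2 was at 475 and 396 CPM (-0.26, -0.31 to -0.21) and was lower in 13 of 13 clusters. Ndufa10 went the other way, at 69.5 and 91.5 CPM (0.40, 0.28 to 0.52), and was higher in 12 of the 12 clusters where it had at least 100 UMIs.

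Complex II, which oxidises succinate and is also an enzyme of the tricarboxylic acid cycle, was higher in sum in the ketogenic library. Its 4 genes summed to 0.0347% of UMIs in chow and 0.0421% in ketogenic cells (log2 ratio 0.28, 0.23 to 0.34). The sum was higher in 13 of 13 clusters, from 0.059 in cluster 7 to 0.90 in cluster 9, with the interval above 0 in 11. With immunoglobulin genes left out of the total, cluster 9 was at 0.46 (0.17 to 0.76) and the interval of cluster 12 included 0. Single genes did not all follow, and of those with at least 100 UMIs in the cluster 1 was lower in each of clusters 0, 3, 4, 7 and 10. In cluster 7, Sdhc was at 82.3 CPM in chow and 50.9 CPM in ketogenic cells (-0.70, -1.27 to -0.10). With fewer UMIs, it was also at the lower level in ketogenic cells of cluster 11 (126 and 96.7 CPM) and of cluster 12 (56.5 and 26.0 CPM, from 22 and 9 UMIs). Over all clusters, Sdha, the catalytic flavoprotein, was at 78.8 and 107 CPM (0.45, 0.34 to 0.56). Sdhb, the iron-sulfur subunit, was at 145 and 173.5 CPM (0.26, 0.18 to 0.35), and Sdhc and Sdhd, the membrane anchors, had log2 ratios of 0.18 and 0.19.

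Within complex III the core proteins and the small subunits went in opposite directions. Uqcrc2, a core protein, was at 74.4 CPM in chow and 106 CPM in ketogenic cells (0.51, 0.40 to 0.62). Uqcrc1, the other core protein, was at 114 and 148 CPM (0.37, 0.28 to 0.46). Uqcrfs1 was at 171 and 191 CPM (0.16, 0.085 to 0.24). The other 5 genes encode small subunits, and all 5 were lower, from -0.15 for Uqcr10 to -0.26 for Uqcrb. Uqcrb was at 446 and 372 CPM and was lower in 13 of 13 clusters.

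Complex IV genes were mostly lower over all clusters, 13 of the 15 that passed 100 UMIs, with a median of -0.15. Within clusters, 5 of 12 were lower in cluster 8 and 1 of 12 in cluster 9, whose total holds many immunoglobulin UMIs. Most were lower in every other cluster. Cox4i1, which contacts the catalytic core, was at 1126 CPM in chow and 1045 CPM in ketogenic cells (-0.11, -0.14 to -0.076). Cox5a was at 416 and 372 CPM (-0.16, -0.21 to -0.11). Of the copies with a restricted partner, Cox6a1 was at 692 and 553 CPM (-0.32, -0.36 to -0.28) and Cox6b1 at 680 and 610 CPM (-0.15, -0.20 to -0.11). Cox7a2, Cox7b and Ndufa4 had log2 ratios of -0.19, -0.14 and -0.20, and Cox8a one of -0.017 with an interval of -0.054 to 0.019.

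The 3 restricted copies and Cox7a2l stood outside this range. Cox6a2 was at 5.74 CPM in chow and 8.97 CPM in ketogenic cells (0.64, 0.38 to 1.02). The weights even out the clusters but not the mix of cells within a cluster. In the Siglech cells of cluster 5, Cox6a2 was at 1120 CPM in chow and 1065 CPM in ketogenic cells, with overlapping intervals. Such cells were 23 of 344 and 30 of 358 in that cluster, and the part of their number in the ratio was not tested. In the NK-like cluster, Cox6a2 had 8 UMIs in chow and 52 in ketogenic cells. The 52 were in 20 of 1062 cells, with 12 UMIs in 1 cell. In NK-like cells without a Siglech UMI, the overlapping gene Itgad was at 15.6 and 17.9 CPM, above Cox6a2 at 4.47 and 14.5 CPM, so these counts are less certain than those of the Siglech cells. Where each cell counted equally, Cox6a2 was no longer past 1.5-fold. Cox6b2 was at 13.003 and 9.18 CPM (-0.50, -0.78 to -0.23), and Cox7a1 at 4.11 and 1.78 CPM (-1.202, -2.07 to -0.60). Cox7a2l was at 387 and 491 CPM (0.34, 0.29 to 0.39) and was higher in 13 of 13 clusters.

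In complex V over all clusters, 4 of the 5 subunits of the catalytic F1 part were higher and 8 of the 10 genes of the membrane part and stalk were lower. In cluster 8, 4 of the 5 F1 genes were lower, while most were higher in every other cluster. Of the membrane part and stalk, 4 of 10 were lower in cluster 8, 0 in cluster 9 and 3 in cluster 10. In clusters 4 and 11 it was 5 of 10, and most were lower in the remaining clusters. Atp5b, the catalytic beta subunit, was at 395 CPM in chow and 553 CPM in ketogenic cells (0.48, 0.44 to 0.53) and was higher in 13 of 13 clusters. Atp5a1, the alpha subunit, was at 299 and 356 CPM (0.25, 0.19 to 0.31). Atp5e, the small epsilon subunit, was the F1 gene that was lower over all clusters (-0.24). Atp5k, a small membrane subunit, was at 392 and 308 CPM (-0.35, -0.40 to -0.29). The 3 genes of the proton-carrying c ring, Atp5g1, Atp5g2 and Atp5g3, encode nearly the same mature protein and had log2 ratios of -0.055, -0.0094 and -0.14. Atp5s and Atp5sl had ratios of -0.036 and -0.033.

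Among the 59 members with at least 100 UMIs in every cluster, Atp5b and Cox7a2l were higher in all 13 clusters, where 14.958% of all such genes were. Uqcrb and Ndufa2 were lower in all 13, where 5.21% were. As shares of the 59, neither count is above its background. With immunoglobulin genes left out of the total, which moves the ratios of cluster 9, the same pair was higher in all 13 clusters (3.39% of the 59, against 12.6% of all genes). Lower in all 13 were then 15 members (25.4%, against 12.6%). These were Uqcrb, Ndufa2, Ndufa3, Uqcrh, Cox6a1, Cox6c, Cox7a2, Atp5e, Atp5k, mt-Nd2, mt-Nd3, mt-Nd4, mt-Cytb, mt-Co1 and mt-Co3.

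Transcript length moved with the diet ratio. The 22 nuclear genes with a transcript of up to 600 nt were all lower in the ketogenic library, with a median log2 ratio of -0.21. Of 108 other protein-coding genes of that length outside the ribosomal proteins, 75.9% were lower, with a median of -0.15. From 600 to 900 nt the medians were -0.13 for the 22 nuclear members and -0.032 for the other genes, and from 900 to 1200 nt 0.052 for 13 members and 0.11. From 1200 to 1800 nt they were 0.16 for 12 members and 0.20, and from 1800 to 2700 nt 0.21 for 9 members and 0.21. Above 2700 nt the median was 0.31 for 2 members, while that of the other genes was back at -0.043.

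Over the 80 nuclear genes, length and ratio had a Spearman correlation of 0.65 and a Pearson correlation, with log2 length, of 0.58. Within single clusters the Spearman values ran from 0.082 in cluster 8 to 0.68 in cluster 0. Over 9839 other protein-coding genes, most of them longer, the Spearman value was -0.33. These are descriptions over genes that share the same libraries. Subunits of the core kinds have the longer transcripts, with medians of 1623 nt for the nuclear complex I core and 1774.5 nt for complex III core proteins, against 763 nt for complex I accessory subunits and 618 nt for complex IV. With each gene set against the median of other genes in its length band, the nuclear complex I core median was 0.052 with 3 of 7 lower, and the F1 median 0.037. Complex II was at 0.18 with 1 of 4 lower, and the complex III core proteins at 0.23. The kinds with lower ratios stayed below 0, with medians of -0.11 for complex I accessory subunits (19 of 29 lower), -0.087 for complex IV (12 of 15), -0.077 for the Rieske protein and small subunits of complex III (5 of 6) and -0.074 for the membrane part and stalk of complex V (7 of 10). The part of length in these differences was not tested further.

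**Figure D5:**
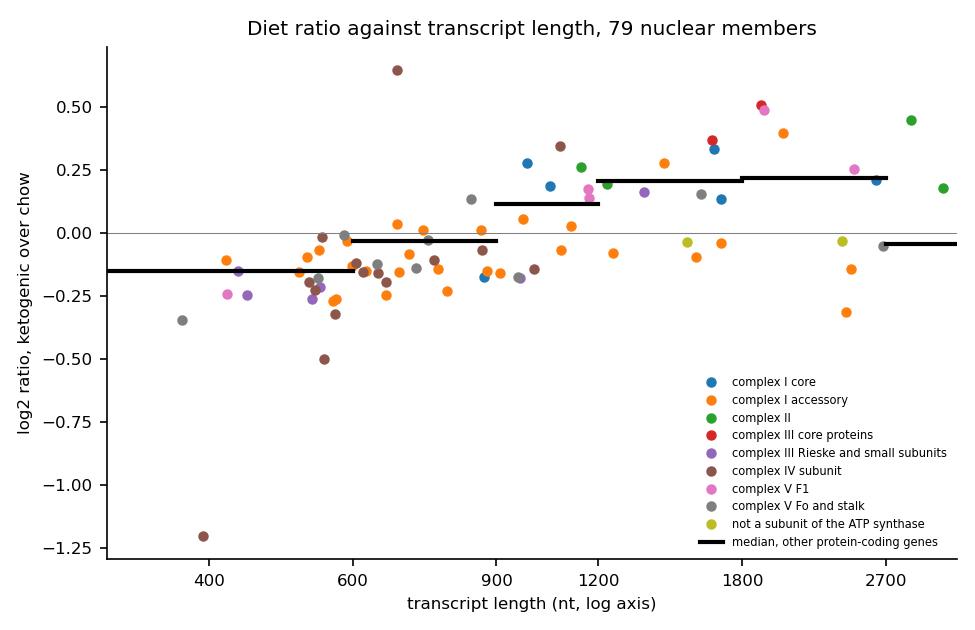
Log2 ratio of ketogenic over chow CPM against transcript length (nt, log axis) for 79 of the 80 nuclear members, coloured by role, with black bars for the median of other protein-coding genes in each length band. The 22 members of up to 600 nt all lie below 0, and the medians of the other genes run from -0.15 in the shortest band to 0.21 between 1800 and 2700 nt and are at -0.043 above that.

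Of the mitochondrial genes, 12 of 13 were lower in the ketogenic library, and they differed among themselves although most are cut from a common precursor transcript. Among complex I genes, mt-Nd1 was at 1785 CPM in chow and 1848 CPM in ketogenic cells (0.050, 0.026 to 0.075), and was higher in 10 of 13 clusters. mt-Nd2 was at 716 and 547 CPM (-0.39, -0.43 to -0.35), and mt-Nd4 at 1186 and 924 CPM (-0.36, -0.39 to -0.33). mt-Nd4l was at 155 and 98.7 CPM (-0.65, -0.74 to -0.56) and lower in 11 of 12 clusters.

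The other complex I genes mt-Nd3 and mt-Nd5 had log2 ratios of -0.22 and -0.22. mt-Nd6, encoded on the opposite strand from the others, had 125 and 134 UMIs and a ratio of -0.46 with a wide interval (-0.89 to -0.035). mt-Cytb, the complex III gene, was at 1611 and 1313 CPM (-0.30, -0.32 to -0.27). The catalytic complex IV genes mt-Co1, mt-Co2 and mt-Co3 had ratios of -0.27, -0.11 and -0.17. mt-Atp6, the proton channel subunit of complex V, was at 3940 and 3900 CPM (-0.014, -0.031 to 0.0019), while mt-Atp8, which overlaps it, was at 70.8 and 53.1 CPM (-0.42, -0.55 to -0.28).

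Cluster 8 showed the widest gap between the genomes. Its nuclear log2 ratio was -0.019 (-0.054 to 0.017), while its mitochondrial one was -0.72 (-0.77 to -0.66). mt-Co1 was at 4063 CPM in chow and 2398 CPM in ketogenic cells, and mt-Nd4 at 1131 and 468 CPM (-1.27, -1.55 to -1.01). Of the 12 mitochondrial genes with at least 100 UMIs there, 8 were at least 1.5-fold lower, where 14.3% of all genes in cluster 8 were. The ketogenic value rests on 47 cells with a median of 4581 UMIs, against 362 cells with 7938.5 in chow. At like depth, in cells of 2000 to 3000 UMIs, the mitochondrial share was 2.40% in 19 chow and 1.33% in 10 ketogenic cells. It was 1.84% in 28 and 1.04% in 19 cells of 3000 to 5000 UMIs, and 1.84% in 231 and 1.11% in 14 cells of 5000 to 10000 UMIs. The ketogenic share was thus the lower one in each window, in few cells.

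In the γδ T-like cluster 11, with 59 chow and 170 ketogenic cells, the nuclear log2 ratio was -0.11 (-0.15 to -0.064) and the mitochondrial one -0.19 (-0.24 to -0.14). Uqcrc1 was at 57.9 CPM in chow and 155 CPM in ketogenic cells (1.37, 0.53 to 2.47), from the lowest value of any chow cluster but cluster 9. Atp5b was at 427 and 657 CPM (0.61, 0.28 to 0.98) and Atp5a1 at 263 and 402 CPM (0.60, 0.17 to 1.07). These 3 of 67 nuclear genes with at least 100 UMIs there were at least 1.5-fold higher, against 8.23% of all genes. Ndufb3 (-0.65), Ndufa5 (-0.64), Ndufb11 (-0.60) and Cox6a1 (-0.59) were at least 1.5-fold lower, against 4.29%.

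In the macrophage-like cluster 3, Ndufs1 was at 18.3 CPM in chow and 28.0 CPM in ketogenic cells (0.63, -0.087 to 1.26), so its interval includes no difference. It was the 1 nuclear gene of 75 past 1.5-fold upwards, against 9.39% of all genes, and none was past it downwards, against 8.87%. Sdhb (0.38, 0.15 to 0.60) and Sdha (0.37, 0.0053 to 0.70) followed. Ndufab1, the mitochondrial acyl carrier protein, was at 125 and 89.6 CPM (-0.47, -0.83 to -0.14), Ndufb2 at 197 and 143 CPM and Cox6a1 at 692 and 524 CPM.

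Genes of the tricarboxylic acid cycle and mitochondrial carriers were mostly higher in the ketogenic library. A ratio below 1 was found for 43.4% of all genes. Of 14 genes of the tricarboxylic acid cycle outside complex II, 2 had a ratio below 1 and the median log2 ratio was 0.29. Idh3b, of the cycle's NAD-dependent isocitrate dehydrogenase, was at 54.2 CPM in chow and 77.6 CPM in ketogenic cells (0.52), and Ogdh was the lowest (-0.11). Of 7 carriers and uncoupling proteins with at least 100 UMIs, 1 was below 1, with a median of 0.23. Slc25a5, an ADP and ATP exchanger, was at 443 and 623 CPM (0.49), and Ucp2 at 404 and 372 CPM (-0.12). None of these genes was past 1.5-fold. Against other genes of the same length band, the medians were 0.11 for the cycle, with 3 of 14 lower, and 0.014 for the carriers, with 3 of 7 lower.

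Of 43 assembly factors with at least 100 UMIs, 20 were below 1 and the median was 0.021. Ecsit, which takes part in complex I assembly, was past 1.5-fold upwards (10.3 and 15.5 CPM), and Timmdc1 (12.3 and 8.19 CPM) and Cox16 (68.8 and 45.3 CPM) downwards. As shares of the 43, neither count is above that of all genes, 4.9995% and 4.84%. Of 7 electron carriers and subunits named otherwise, 4 were below 1, with a median of -0.17. Etfdh, which passes electrons from fatty acid oxidation to ubiquinone, was the highest (0.32) and Atpif1, the ATP synthase inhibitor, the lowest (291 and 229 CPM, -0.35). Genes of mitochondrial DNA maintenance and transcription had 7 of 13 below 1 and a median of -0.0051, and against other genes of their length band 9 of 13 and -0.19. The ratios themselves ran from -0.38 for Peo1, the helicase, to 0.41 for Polrmt, the RNA polymerase. Of 8 regulators with at least 100 UMIs, 3 were below 1, with a median of 0.051. Pparg was at 12.6 and 17.8 CPM (0.50) and Pprc1 at 8.90 and 7.46 CPM (-0.25).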

How the data were processed

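Each deposited matrix gives, for every cell and gene, a raw count of UMIs without normalisation, as its whole numbers show. Cell Ranger, Seurat and the build mm10 are named in the submitters' processing notes, without versions; aligner settings, annotation and strand handling are not given in the sources used here. The authors' deposited table gives cluster numbers, per the file headers at a resolution of 0.5. It was used as given.

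Counts were summed per cluster and library, and shares, CPM and log2 ratios with 0.5 added to each count were computed with Python 3.11.15, numpy 2.4.6, pandas 2.3.3 and scipy 1.17.1, and plotted with matplotlib 3.10.9. Intervals are exact binomial for shares, exact Poisson for CPM and exact conditional for ratios within a cluster, at 95%. Ratios with the same cluster weights in both libraries have delta-method intervals from the summed counting variances. For single genes these leave out the added 0.5, so they are not centred on the ratio of a gene with few UMIs. The ratios, calls, intervals and thinning were tested on simulated data. No doublet caller was run, and leaving out the 5% of cells with the most UMIs was an alternative.

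The members and gene lists were chosen with earlier results of these data known. Named are all mitochondrial genes, core subunits and isoform pairs, the 5 highest and lowest diet ratios, the 3 highest and lowest in clusters 11 and 3, the most and least variable genes, the highest and lowest of each other list, and others chosen after their values were seen. The values of 1 member are not reported here and it is left out of the figures, but it is part of the counts and sums. A cluster took a name when at least 3 markers of a class were at least 2-fold higher (20 CPM added) than in all other cells and its 10 leading genes did not go against it, limits chosen after seeing the data. Positions and transcript lengths (median of the principal transcripts) are from GENCODE M21 (GRCm38), which held 28416 of the 28692 gene IDs.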

Additional observations from a re-analysis of the deposited data

How the results depend on the processing

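With 1 library a diet, leaving out a library was not possible, and the diet and the library cannot be told apart. No paired analysis was possible because each diet has 1 library and no result comes from a test. The diet ratios are small and precise only in counting error. Single genes with few UMIs (Cox7a1, mt-Nd6, Atp5s) are limited by depth.

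The log2 ratio of the nuclear genes stayed below 0 in all 12 alternatives. It was -0.089 with mitochondrial, ribosomal, immunoglobulin and haemoglobin genes out of the total, and -0.085 without clusters 3 and 8. Without weights it was -0.12, over clustered cells and over all barcodes alike. The alternatives chosen after seeing the data gave -0.12 in cells of 3000 to 5000 UMIs, -0.087 without immunoglobulin genes in the total and -0.087 without cluster 9. The ratio of the mitochondrial genes also stayed below 0 in all 12. It was -0.18 with the reduced total, -0.16 with a common UMI minimum, -0.17 with 10% free RNA subtracted and -0.15 without clusters 3 and 8. Without weights it was -0.11, over clustered cells and over all barcodes alike. The later alternatives gave -0.20 in cells of 3000 to 5000 UMIs, -0.18 without immunoglobulin genes, -0.15 without cells above 4% mitochondrial UMIs and -0.18 without cluster 9.

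The 1 gene past 1.5-fold upwards became 0 with a 2-fold limit and 0 with the mean over cells. The 2 past it downwards became 1 with a minimum of 200 UMIs, 1 with a 2-fold limit, 1 with centring by length (added later) and 3 without weights, where 16.2% of all genes were past 1.5-fold upwards and 10.7% downwards. Within clusters, 7 of 156 ratios changed sign. For the nuclear genes, cluster 8 gave 0.047 with the mean over cells, cluster 10 gave 0.012 with the reduced total and 0.0047 with free RNA subtracted, and cluster 9 gave -0.063 with the reduced total and -0.10 without immunoglobulin genes. For the mitochondrial genes, cluster 9 gave -0.17 and -0.21. Other causes of these changes were not tested. Cluster 11 held the highest nuclear share in chow under all 6 alternatives, and in the ketogenic library only with the reduced total. Its highest mitochondrial share passed to cluster 9 with the reduced total and without immunoglobulin genes in both libraries, and with the mean over cells in the ketogenic one.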
